A study of Gallus gallus with 4 samples.

Results

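The genes described here are 33 enzymes and regulators of cholesterol and fatty acid synthesis, matched to the gene names of the deposited transcript table. They were chosen by name from known pathway roles, with earlier results of these data already known. Of these, 32 matched, through 68 transcripts, among 18292 named genes in all, and EBP is not analysed here. They were read in RNA from chick retinal explants of embryonic day 5 that had been electroporated with 2 plasmids and cultured for about 20 hours. One plasmid carried GFP under ThrbCRM1, a regulatory element of THRB, the gene of a thyroid hormone receptor, which is known to be active in restricted progenitors of cones and horizontal cells. The other carried TdTomato under UbiqC. The ThrbCRM1 population was sorted as positive for both reporters and the UbiqC population as positive for TdTomato alone, so all cells compared had been electroporated with the same plasmids and cultured in serum-containing medium. There were 2 libraries of each population, lettered A and B, and paired values below give A before B. The UbiqC population is defined by the lack of GFP and can hold any other electroporated cell of the explant, and a reporter-based sort does not separate progenitors from their early progeny.

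Cholesterol is built from acetyl-CoA through mevalonate, isoprenoid units, squalene and lanosterol. The SREBP transcription factors, encoded by SREBF1 and SREBF2, switch on the enzymes when sterols are scarce: SCAP escorts them from the endoplasmic reticulum to the Golgi for cleavage, and the INSIG proteins hold them back when sterols are plentiful. Fatty acids are made from the same acetyl-CoA by acetyl-CoA carboxylase and fatty acid synthase, then desaturated and elongated. Photoreceptor membranes are known for their high content of very long polyunsaturated fatty acids.

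Library totals lay between 30959178 estimated counts in ThrbCRM1 A and 16087500 in ThrbCRM1 B, and between 15673010 in UbiqC A and 31659766 in UbiqC B. Of the sort's reporters, EGFP reached 9805 and 15147 TPM in ThrbCRM1, against 150.3 and 156 TPM in UbiqC. TdTomato, which both populations were sorted to carry, was at 3547 and 14505 TPM in ThrbCRM1 and 2124 and 5637 TPM in UbiqC. Its level thus differed between the populations and between the libraries of each. The listed retinal homeobox and progenitor genes were detected in every library, at a summed 1586 and 1416 TPM in ThrbCRM1 and 2129 and 1905 TPM in UbiqC, with 1 of 7 higher and 5 lower in ThrbCRM1. All 8 listed genes of young photoreceptors were higher in ThrbCRM1, with sums of 3628 and 4150 TPM against 83.2 and 88.8 TPM in UbiqC. Of 7 tested genes on the glia list 6 were lower. The list's sums were 1224 and 1152 TPM in ThrbCRM1 and 6334 and 7016 TPM in UbiqC. CA2 alone held 518 and 467 TPM of them in ThrbCRM1 and 5283 and 5881 TPM in UbiqC. GFAP was at 0.32 and 0.20 TPM in ThrbCRM1 and 0.61 and 0.31 TPM in UbiqC, and S100B was not called. These sums are therefore no measure of how many glia were present. Among markers of cells from outside the neural retina, the sums lay at 17.6 and 17.1 TPM in ThrbCRM1 against 20.1 and 19.0 TPM in UbiqC for pigment epithelium (2 of 6 higher, 1 lower), 55.1 and 39.9 against 21.9 and 19.5 TPM for lens (2 of 4 higher, 2 lower), 64.4 and 52.5 against 12.9 and 13.6 TPM for blood and immune cells (2 of 3 higher, 1 lower), and 27.6 and 26.6 against 75.9 and 99.9 TPM for endothelium and mesenchyme (0 of 9 higher, 5 lower). Of 10 listed blood and immune markers 3 had a match. LMO2 held 59.9 and 47.6 TPM of that sum in ThrbCRM1 and 9.52 and 11.1 TPM in UbiqC, while TAL1 was lower in ThrbCRM1. CRYBA4 held 49.6 and 33.95 TPM of the lens sum in ThrbCRM1. KDR held 53.8 and 74.2 TPM of the endothelium and mesenchyme sum in UbiqC. No matched marker was at 0 in both libraries of a group. TYRP1 was listed at 0 in UbiqC A and CRYBB1 in UbiqC B. The part of these differences in cell makeup in the results below was not tested.

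Of the 32 synthesis genes, 17 (53.1%) passed the edgeR quasi-likelihood test at an adjusted p of 0.05, where 40.8% of all 16771 tested genes did, and 2 of the 17 differed by at least 2-fold. ELOVL2, which elongates polyunsaturated fatty acids, was 5.45-fold higher in ThrbCRM1 cells, and STARD4, a carrier of cholesterol between membranes, was 2.22-fold higher. The sterol sensors SCAP and INSIG1 were higher by 72.8% and 54.3%, and the desaturase gene FADS2 was lower by the largest margin among the 32. In this bulk RNA, fewer cells of a type and less RNA per cell cannot be told apart. All 32 genes passed the filter on low counts, and 15 did not pass the test. Of the 32, 11 (34.4%) were higher in ThrbCRM1, against 19.9% of all genes, and 6 (18.8%) were lower, against 20.9%. The 2 genes with at least a 2-fold difference made up 6.25% of the list, against 17.3% of all genes. The libraries of the populations did not overlap in TPM for 24 genes (75.0%), against 71.9% of all genes. ThrbCRM1 was above UbiqC in 16 of the 32, against 39.1% of all genes, and below in 8, against 32.8%. The list's median log2 fold change was 0.04, beside -0.01 over all genes, and its median absolute log2 fold change was 0.27, beside 0.39.

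For 12 of the 17 called genes the call was lost when some single library was left out. Fewer genes passed with a library left out, both among the 32 and over all genes. Such a fit has a lone library in a group, so a lost call need not mean a changed effect. With limma on log2(TPM + 1) and all libraries, 14 of the 32 were higher and 3 lower. The median log2 fold change over all genes was 0.04 in that setting. Under all 13 other settings tried, 5 genes kept their direction and their call, namely INSIG1, SCAP, FADS2, ELOVL2 and STARD4.

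**Figure D1:**
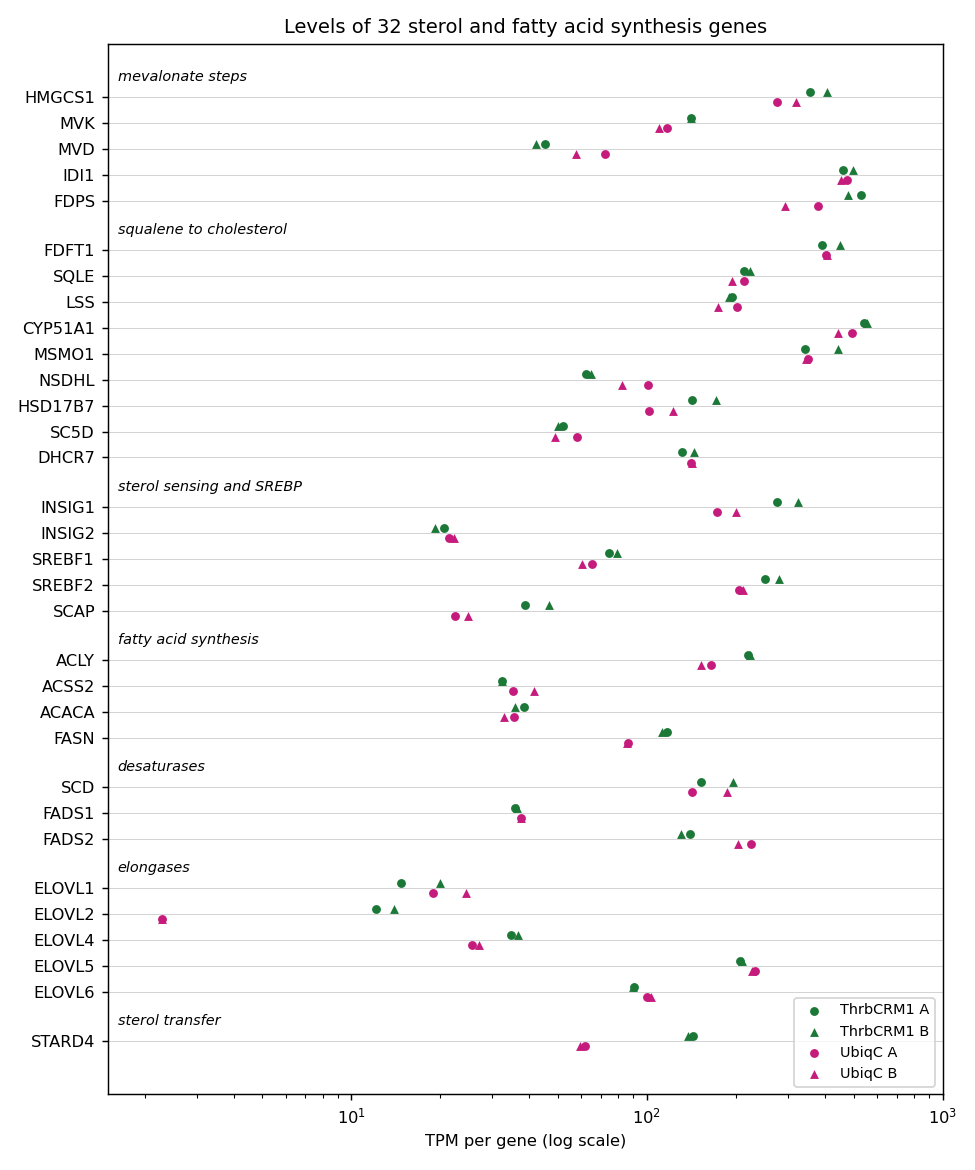
TPM per gene (log scale) of the 32 matched synthesis genes in each library, grouped by role; circles are A libraries and triangles B libraries. ThrbCRM1 and UbiqC points do not overlap for 24 of the 32 genes, STARD4, ELOVL2, SCAP, INSIG1 and FADS2 among them. That is 75.0%, against 71.9% of all genes. The points lie close together for most sterol enzymes.

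**Figure D2:**
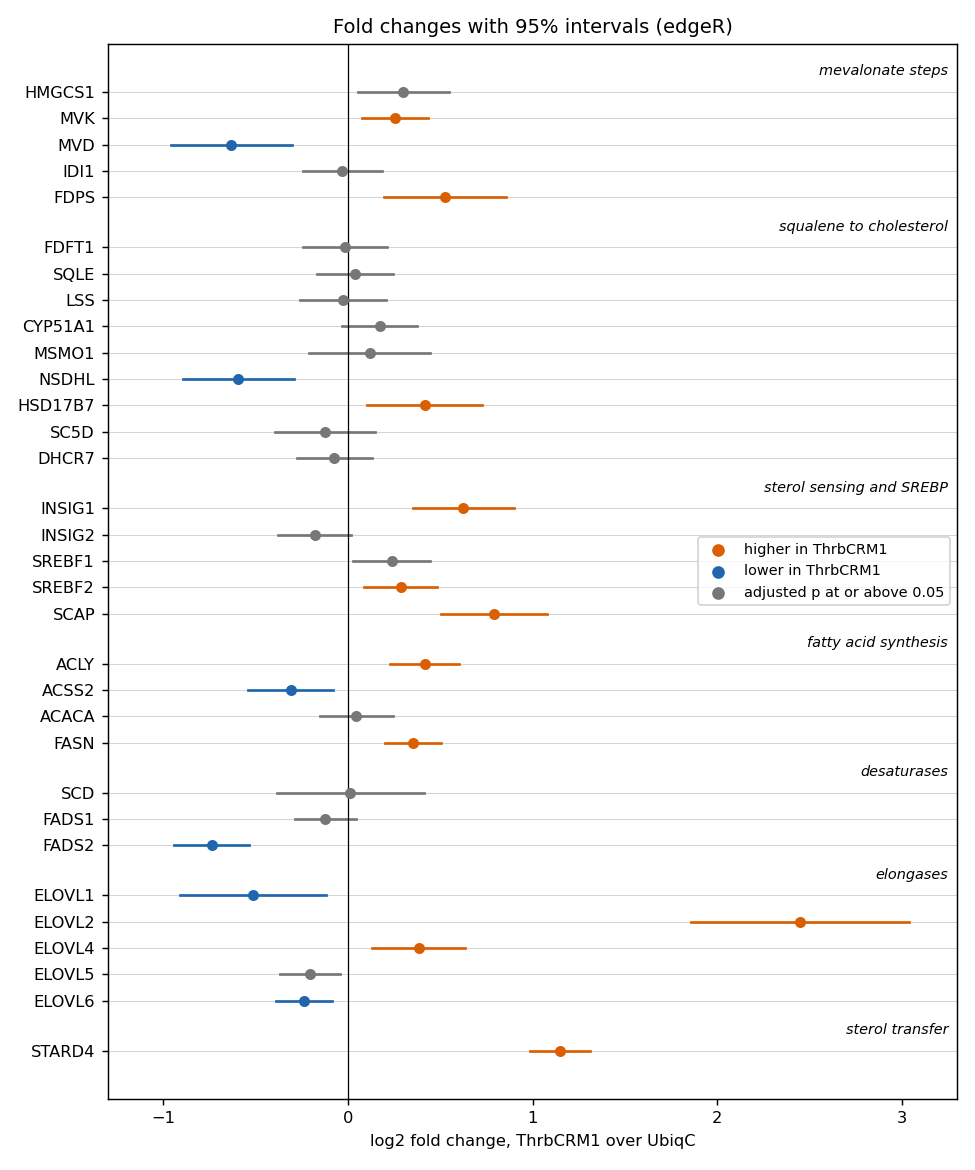
Log2 fold change of ThrbCRM1 over UbiqC for the same genes, with 95% intervals from the edgeR fit; colours give the call at an adjusted p of 0.05. ELOVL2 lies at 2.45 and STARD4 at 1.15, and the other 30 genes lie between -0.74 and 0.79.

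Among the mevalonate steps, MVK and FDPS rose in ThrbCRM1 and MVD fell. FDPS, which makes farnesyl diphosphate, was measured at 532 and 479.7 TPM in ThrbCRM1, against 379 and 293 TPM in UbiqC. Both ThrbCRM1 libraries lay above both UbiqC libraries, a log2 fold change of 0.53 ± 0.14 (SE; edgeR adjusted p = 0.0235). MVK, mevalonate kinase, stood at 141 and 141 TPM in ThrbCRM1 and at 117 and 109.7 TPM in UbiqC (log2 fold change 0.26 ± 0.07, edgeR adjusted p = 0.0361). MVD, the decarboxylase that makes the first isoprenoid unit, went the other way, with 45.1 and 42.2 TPM in ThrbCRM1 against 72.2 and 57.7 TPM in UbiqC (-0.63 ± 0.13, edgeR adjusted p = 0.0119). HMGCS1, which makes HMG-CoA at the head of the pathway, stood at 356 and 407 TPM in ThrbCRM1 and at 275 and 319.9 TPM in UbiqC. Its groups did not overlap, but it did not pass the edgeR test (log2 fold change 0.30, adjusted p = 0.0578); it did pass with the DESeq2 test (0.0123), with limma on log2(TPM + 1) (0.0301) and without UbiqC B (0.0273). Without ThrbCRM1 B the log2 fold change of HMGCS1 was 0.18 (edgeR adjusted p = 0.299), and without UbiqC A it was 0.21 (0.218). IDI1, which isomerises the isoprenoid unit, overlapped between the populations, at 459 and 497 TPM in ThrbCRM1 and 473 and 452 TPM in UbiqC, and the 95% interval of its log2 fold change ran from -0.24 to 0.18. The sum over the 5 steps was 1550.3 ± 23.0 TPM in ThrbCRM1 and 1275 ± 58.7 TPM in UbiqC (SD, n = 2). Each of the 3 calls was lost without ThrbCRM1 A and likewise without ThrbCRM1 B: the edgeR adjusted p without A and without B was 0.155 and 0.0581 for FDPS, 0.1425 and 0.173 for MVK, and 0.0945 and 0.0618 for MVD. MVK also lost its call without UbiqC B (0.1199), and the log2 fold change of FDPS was 0.34 without UbiqC B.

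From squalene to cholesterol, 7 of the 9 enzymes did not pass the test and 2 (22.2%) did, where 40.8% of all genes passed. HSD17B7, a sterol ketoreductase, was higher, with 142 and 171 TPM in ThrbCRM1 and 102 and 123 TPM in UbiqC (log2 fold change 0.42 ± 0.13, edgeR adjusted p = 0.0426). NSDHL, which acts in the same removal of methyl groups from the sterol ring, was lower, with 62.0 and 64.6 TPM in ThrbCRM1 and 101 and 82.4 TPM in UbiqC (-0.59 ± 0.12, edgeR adjusted p = 0.0107). Neither gene's libraries overlapped between the populations, as in 71.9% of all genes. CYP51A1, the lanosterol demethylase, had the highest TPM of the 32 genes in both populations, 543 and 555 in ThrbCRM1 and 492 and 442 in UbiqC, without overlap. Its log2 fold change of 0.17 had a 95% interval of -0.03 to 0.38 and an edgeR adjusted p of 0.151, though it passed with limma on log2(TPM + 1) (0.0385). SQLE, the squalene epoxidase, also did not overlap, at 213 and 223 TPM in ThrbCRM1 and 212 and 193 TPM in UbiqC, but had an edgeR adjusted p of 0.744. FDFT1, which makes squalene, LSS, which cyclises its epoxide, MSMO1, SC5D and DHCR7 overlapped between the populations. The log2 fold changes of these 5 lay between -0.13 for SC5D and 0.12 for MSMO1, and their 95% intervals lay between -0.40 and 0.44. FDFT1, for example, was at 389.5 and 450.1 TPM in ThrbCRM1 and 404 and 408 TPM in UbiqC. LSS was at 194 and 190.2 TPM in ThrbCRM1 and 202 and 173 TPM in UbiqC. MSMO1, a sterol oxidase, was at 343 and 444 TPM in ThrbCRM1 and 350.02 and 345 TPM in UbiqC, so that ThrbCRM1 B lay above the other libraries and ThrbCRM1 A did not. SC5D, a sterol desaturase, was at 52.1 and 49.9 TPM in ThrbCRM1 and 58.0 and 48.9 TPM in UbiqC. For DHCR7, a late step to cholesterol, the values were 131 and 145 TPM in ThrbCRM1 and 141 and 143 TPM in UbiqC. HSD17B7 lost its call without ThrbCRM1 A (edgeR adjusted p = 0.0503), without ThrbCRM1 B (0.217, log2 fold change 0.26) and without UbiqC A (0.165), and NSDHL without ThrbCRM1 A (0.113).

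Of the 5 sterol-sensing genes, 3 were higher in ThrbCRM1 and none lower, where 19.9% of all genes were higher and 20.9% lower. SCAP, the SREBP escort, was measured at 38.6 and 46.7 TPM in ThrbCRM1, against 22.4 and 24.8 TPM in UbiqC, a log2 fold change of 0.79 ± 0.12 (edgeR adjusted p = 0.00297). INSIG1, which retains SCAP and is itself a known SREBP target, stood at 275 and 326 TPM in ThrbCRM1 and at 173 and 201 TPM in UbiqC (0.63 ± 0.11, edgeR adjusted p = 0.00637). Among the 32 genes it was the 7th most abundant in ThrbCRM1 and the 12th in UbiqC. SREBF2, whose product mainly drives sterol synthesis, stood at 251 and 279 TPM in ThrbCRM1 and at 205 and 211 TPM in UbiqC (0.29 ± 0.08, edgeR adjusted p = 0.0330). SREBF1, more tied to fatty acid synthesis, stood at 74.6 and 79.1 TPM in ThrbCRM1 and at 65.1 and 60.2 TPM in UbiqC and did not pass (log2 fold change 0.24, edgeR adjusted p = 0.0694), but passed with limma on log2(TPM + 1) (0.0289). INSIG2 stood at 20.6 and 19.3 TPM in ThrbCRM1 and at 21.4 and 22.2 TPM in UbiqC, and the 95% interval of its log2 fold change ran from -0.38 to 0.02. In all of these 5 genes the populations did not overlap, as in 71.9% of all genes. SREBF2 lost its call without ThrbCRM1 B (edgeR adjusted p = 0.199, log2 fold change 0.19), without UbiqC A (0.0950) and without UbiqC B (0.0586).

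STARD4 showed the smallest p of the 32 genes. It reached 143 and 138 TPM in ThrbCRM1, against 62.0 and 59.6 TPM in UbiqC. The log2 fold change was 1.15 ± 0.07 (edgeR adjusted p = 7.2e-05), with values between 1.11 and 1.21 over all settings. Its place by abundance among the 32 genes was 16th in ThrbCRM1 and 23rd in UbiqC.

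In fatty acid synthesis, ACLY and FASN were higher in ThrbCRM1 and ACSS2 was lower. ACLY, which makes cytosolic acetyl-CoA from citrate, stood at 219 and 223 TPM in ThrbCRM1 and at 165 and 153 TPM in UbiqC (log2 fold change 0.42 ± 0.08, edgeR adjusted p = 0.00683). FASN, fatty acid synthase, stood at 117 and 113 TPM in ThrbCRM1 and at 86.3 and 85.9 TPM in UbiqC (0.35 ± 0.06, edgeR adjusted p = 0.00551). ACSS2, which makes acetyl-CoA from acetate, stood at 32.3 and 32.4 TPM in ThrbCRM1 and at 35.1 and 41.6 TPM in UbiqC (-0.31 ± 0.09, edgeR adjusted p = 0.0407). For these 3, and also for ACACA, the populations did not overlap in TPM, as in 71.9% of all genes. ACACA, acetyl-CoA carboxylase, lay between these enzymes in the pathway and did not pass, with 38.3 and 35.9 TPM in ThrbCRM1, 35.6 and 32.7 TPM in UbiqC and a 95% interval of -0.15 to 0.25. Without ThrbCRM1 A the edgeR adjusted p was 0.0509 for ACLY and 0.0558 for FASN. ACSS2 lost its call without ThrbCRM1 A (0.227), without ThrbCRM1 B (0.134) and without UbiqC B (0.171, log2 fold change -0.20), and with the DESeq2 test (0.0635), DESeq2 size factors (0.0503) and limma on log2(TPM + 1) (0.128).

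The desaturases differed from each other. FADS2, the delta-6 desaturase that starts the path to long polyunsaturated fatty acids, was measured at 139 and 129.9 TPM in ThrbCRM1, against 225 and 204 TPM in UbiqC. It fell by 40.0% (log2 fold change -0.74 ± 0.08, edgeR adjusted p = 0.000979) and was the 18th most abundant of the 32 genes in ThrbCRM1 and the 8th in UbiqC. FADS1, the delta-5 desaturase that acts later on the same path, stood at 35.8 and 36.3 TPM in ThrbCRM1 and at 37.5 and 37.5 TPM in UbiqC, with a 95% interval of -0.29 to 0.04 for its log2 fold change. SCD, which makes monounsaturated fatty acids, overlapped between the populations, and both B libraries were above both A libraries, with 152 and 195 TPM in ThrbCRM1 and 142 and 186 TPM in UbiqC.

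Of the 5 elongases 2 were higher, 2 lower and 1 not called, where 19.9% of all genes were higher and 20.9% lower. Among the called elongases, only ELOVL2 kept its call in every setting. ELOVL2 was the least abundant of the 32 genes in both populations, with 12.1 and 14.0 TPM in ThrbCRM1 against 2.28 and 2.29 TPM in UbiqC. These values rested on 175 and 105 estimated counts in ThrbCRM1 and 18 and 35 in UbiqC. The log2 fold change was 2.45 ± 0.24 (edgeR adjusted p = 0.000579), and lay between 2.10 and 2.58 over all settings. ELOVL4, which makes the very long fatty acids of photoreceptor membranes, stood at 34.8 and 36.7 TPM in ThrbCRM1 and at 25.7 and 27.1 TPM in UbiqC (0.38 ± 0.10, edgeR adjusted p = 0.0282). ELOVL6, which elongates saturated and monounsaturated fatty acids, stood at 90.3 and 89.7 TPM in ThrbCRM1 and at 100.1 and 103 TPM in UbiqC (-0.24 ± 0.06, edgeR adjusted p = 0.0259). ELOVL5, which elongates shorter polyunsaturated fatty acids, was the most abundant elongase, with 206 and 210.2 TPM in ThrbCRM1 and 232 and 227 TPM in UbiqC. It did not pass the edgeR test (log2 fold change -0.20, adjusted p = 0.0540). ELOVL1 overlapped between the populations in TPM, with 14.7 and 19.9 TPM in ThrbCRM1 and 18.9 and 24.5 TPM in UbiqC, and was lower by the count-based test (-0.52 ± 0.16, edgeR adjusted p = 0.0466). The call of ELOVL1 was lost with transcript length offsets (0.146), with the DESeq2 test (0.0748), with DESeq2 size factors (0.0538), with no filter (0.0532) and with limma on log2(TPM + 1) (0.2204, log2 fold change -0.31), and without ThrbCRM1 A (0.261), ThrbCRM1 B (0.0569) or UbiqC B (0.190, log2 fold change -0.34). ELOVL4 and ELOVL6 missed the threshold whichever library was left out, while their direction held. Leaving out ThrbCRM1 A, ThrbCRM1 B, UbiqC A and UbiqC B in turn gave log2 fold changes of 0.46, 0.32, 0.36 and 0.40 for ELOVL4. For ELOVL6 they were -0.21, -0.25, -0.24 and -0.23. ELOVL4 also missed the threshold with DESeq2 (0.0731), and ELOVL6 with limma on log2(TPM + 1) (0.0802).

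Of the 32 genes, 16 had several annotated transcripts. The transcripts of FADS2 kept nearly the same proportions in all libraries, with the longer transcript at 85.0% and 84.0% of the gene's TPM in ThrbCRM1 and at 85.1% and 84.8% in UbiqC, and both were lower in ThrbCRM1. For STARD4 the main transcript took 74.3% and 61.8% of the gene's TPM in ThrbCRM1 and 73.0% and 59.96% in UbiqC. The A libraries of both populations had the higher share, and both transcripts were higher in ThrbCRM1. The transcripts of ELOVL4 differed within ThrbCRM1, where the longer form took 45.0% in A and 62.2% in B, against 47.7% and 46.2% in UbiqC. In HMGCS1 the most abundant transcript held 74.3% and 81.0% in ThrbCRM1 and 69.3% and 76.3% in UbiqC. These shares are kallisto estimates for transcripts that overlap in sequence, and they were not tested.

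**Figure D3:**
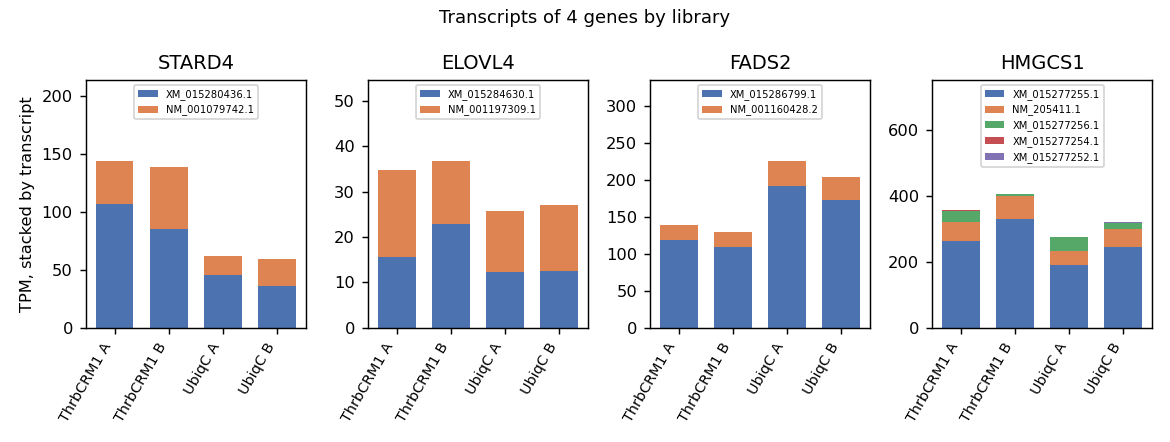
TPM of each annotated transcript of STARD4, ELOVL4, FADS2 and HMGCS1, stacked by library, with ThrbCRM1 left of UbiqC. Both FADS2 transcripts are lower and both STARD4 transcripts higher in ThrbCRM1, while the split of ELOVL4 differs between ThrbCRM1 A and B.

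Other genes of lipid handling were read from 6 lists of pathway genes, whose counts stand beside 19.9% of all genes higher and 20.9% lower in ThrbCRM1. Of 19 tested genes of sterol uptake, export and storage 5 (26.3%) were higher and 7 (36.8%) lower. ABCG1, a sterol exporter, stood at 84.1 and 88.1 TPM in ThrbCRM1 and at 16.7 and 17.5 TPM in UbiqC (log2 fold change 2.27 ± 0.07, edgeR adjusted p = 1.5e-05). ABCA1, which exports cholesterol to apolipoproteins, stood at 85.0 and 94.0 TPM in ThrbCRM1 and at 20.9 and 22.1 TPM in UbiqC (2.00 ± 0.09, edgeR adjusted p = 2.4e-05). The counts higher and lower in that list were 3 and 3 without ThrbCRM1 A, 2 and 3 without ThrbCRM1 B, 4 and 4 without UbiqC A, 4 and 3 without UbiqC B and 5 and 3 with DESeq2 or with limma on log2(TPM + 1).

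Of 10 other genes of sterol and isoprenoid synthesis 2 were higher (20.0%) and 2 lower (20.0%), near the shares over all genes. LBR, a sterol reductase of the nuclear envelope, was lower, with 393 and 428 TPM in ThrbCRM1 and 489 and 573 TPM in UbiqC (log2 fold change -0.47 ± 0.08, edgeR adjusted p = 0.00435; 0.0568 without ThrbCRM1 A). PDSS1, which takes part in making the side chain of ubiquinone and was chosen after its values were seen, was also lower, with 25.9 and 25.5 TPM in ThrbCRM1 and 39.8 and 34.2 TPM in UbiqC (-0.58 ± 0.12, edgeR adjusted p = 0.0102). The list's counts were 1 higher and 0 lower without ThrbCRM1 A, 1 and 1 without ThrbCRM1 B, and 1 and 2 without UbiqC A. Of 15 genes of SREBP processing and transport 3 were higher (20.0%) and 2 lower (13.3%). These counts changed with each library left out. They were 4 and 2 with DESeq2 size factors or a filter at 5 CPM. With the letter as a replicate block they were 5 and 3. With limma on log2(TPM + 1) or transcript length offsets they were 2 and 2. The 2 that fell were SEC24D, a coat protein of vesicles leaving the endoplasmic reticulum (3.46 and 2.66 TPM in ThrbCRM1, 9.77 and 7.82 TPM in UbiqC; edgeR adjusted p = 0.00119), and ERLIN2, which takes part in sterol-driven protein degradation (106 and 99.0 TPM in ThrbCRM1, 126 and 141 TPM in UbiqC; edgeR adjusted p = 0.00414).

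Among 19 other genes of fatty acid synthesis and activation 4 were higher (21.1%) and 5 lower (26.3%), and 4 and 1 without ThrbCRM1 A and 4 and 2 without ThrbCRM1 B. MID1IP1, an activator of acetyl-CoA carboxylase, stood at 169.9 and 186 TPM in ThrbCRM1 and at 78.1 and 79.1 TPM in UbiqC (log2 fold change 1.12 ± 0.09, edgeR adjusted p = 0.000233). HSD17B12, the ketoreductase of the elongation cycle that all elongases share, was lower, with 72.8 and 72.4 TPM in ThrbCRM1 and 116 and 120.4 TPM in UbiqC (-0.77 ± 0.06, edgeR adjusted p = 0.000280).

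Of 14 tested genes of fatty acid oxidation, 8 fell in ThrbCRM1 (57.1%, against 20.9% of all genes), 1 rose (7.14%, against 19.9%) and 5 did not pass, with a median log2 fold change of -0.54 beside -0.01 over all genes. HADH, a dehydrogenase of the mitochondrial cycle, stood at 40.3 and 39.1 TPM in ThrbCRM1 and at 93.7 and 98.8 TPM in UbiqC (log2 fold change -1.34 ± 0.08, edgeR adjusted p = 8.0e-05). SLC25A20, the carnitine carrier of the inner mitochondrial membrane, stood at 36.5 and 33.4 TPM in ThrbCRM1 and at 73.1 and 85.2 TPM in UbiqC (-1.24 ± 0.09, edgeR adjusted p = 0.000185). The 1 that rose, CPT1A, which starts carnitine-dependent import and was singled out once its value was known, reached 18.1 and 20.9 TPM in ThrbCRM1 and 8.95 and 12.5 TPM in UbiqC (0.75 ± 0.14, edgeR adjusted p = 0.00656). Between 7 and 8 of the 14 fell when any library was left out, and without UbiqC B 3 rose.

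Of 3 tested fatty acid binding proteins 1 fell. FABP7, which carries polyunsaturated fatty acids in neural progenitors and glia, stood at 2130 and 1892 TPM in ThrbCRM1 and at 15656 and 15454 TPM in UbiqC (log2 fold change -3.01 ± 0.07, edgeR adjusted p = 1.4e-05). FABP5 stood at 175 and 94.8 TPM in ThrbCRM1 and at 111 and 84.9 TPM in UbiqC, with overlap and no call (log2 fold change 0.41). The log2 fold change of FABP5 varied with the library left out, at 0.76 without ThrbCRM1 B and -0.07 without ThrbCRM1 A.

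**Figure D4:**
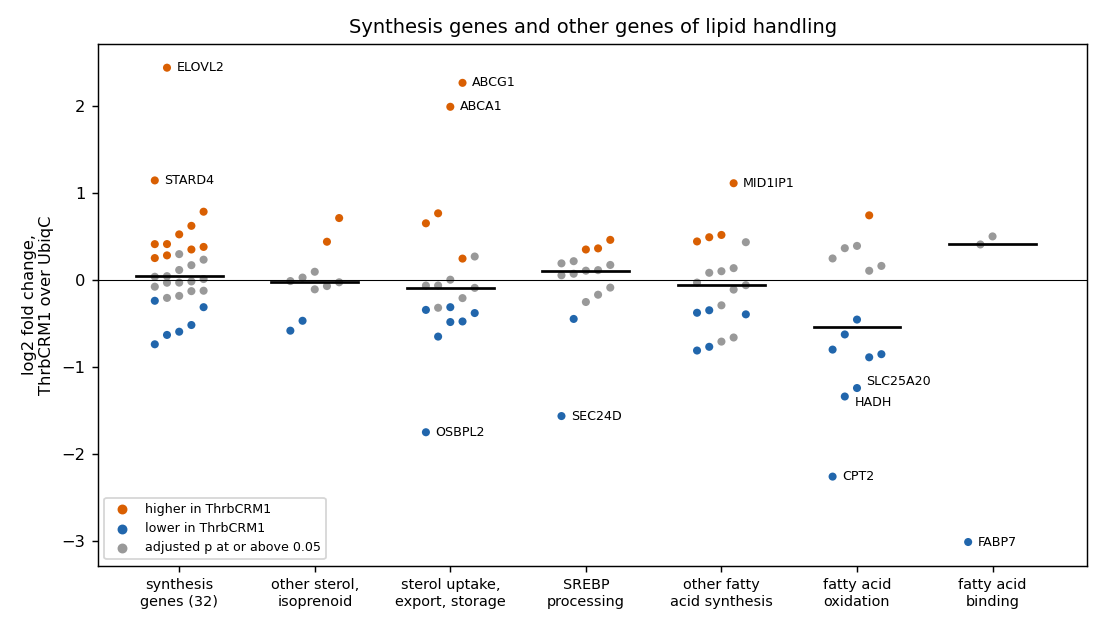
Log2 fold change of ThrbCRM1 over UbiqC for the 32 synthesis genes and 6 further lists of lipid genes; each point is a tested gene, bars are list medians, and names mark genes beyond 1.1 in either direction. ABCA1 and ABCG1 stand at 2.00 and 2.27, and the oxidation list has its median at -0.54.

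In the authors' deposited table, a q-value below 0.05 was given for 16 of the 32 synthesis genes, 10 higher and 6 lower in ThrbCRM1. Of these, 15 also passed here, all with the same direction in both. HSD17B7 and ELOVL1 passed only here, with q-values of 0.0783 and 0.286 in the authors' deposited table, and ELOVL5 only there, with a q-value of 0.00559. The authors' deposited table and the edgeR test used the same 4 libraries and are not independent.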

How the data were processed

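PolyA RNA was measured in 4 libraries, whose titles give the population and the letter. Per the submitters' processing notes, kallisto quantified the transcripts, sleuth compared the populations and galGal5 was the build, while releases of these tools were not given in the sources used here. Expected counts and TPM per transcript were deposited by the authors, with effective lengths (other values, in bases). Their deposited comparison holds q-values (adjusted p-values) and effects in natural log units, which are negative for genes higher in ThrbCRM1.

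Here TPM and expected counts were added up per gene, with counts rounded to the nearest whole number. The reporters EGFP and TdTomato were not among the genes, and 21 gene labels that a spreadsheet had turned into day numbers stayed unnamed. Populations were compared with edgeR 4.0.16 in R 4.3.3, using TMM, filterByExpr (minimum count 10) and its quasi-likelihood F test, with Benjamini-Hochberg adjustment over 16771 genes and a threshold of 0.05. Standard errors are the log2 fold change over the root of F, and 95% intervals use the fit's total degrees of freedom. This test was first run on simulated counts whose changed genes differed by at least 2-fold, which does not cover the smaller differences described here.

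The members, lists and rules were chosen with earlier results of these data known. The rule for named genes took all members and, from each other list, the 2 genes with the smallest edgeR p, plus FABP7; some genes that the rule takes are left out of the text. Alternatives were DESeq2 1.42.0, its size factors in edgeR, no count filter, a filter at 5 CPM, offsets for transcript length, the letter as a block, limma 3.58.1 on log TPM, and leaving out each library. With a library left out, the lone sample of its group is assumed to vary like the other group. Whether A and B are separate cultures is not stated in the labels; p-values therefore cover only how these libraries vary, which may be technical. Within a group the 2 libraries differed beyond sampling noise, with a chi-square over its degrees of freedom of 8.22 for ThrbCRM1 and 9.83 for UbiqC. Genes with near-identical copies or overlapping neighbours have uncertain estimated counts. Coordinates and sequences were not used here.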

Additional observations from a re-analysis of the deposited data

How the results depend on the processing

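The counts of synthesis genes higher in ThrbCRM1 lay between 11 and 14 over the settings that used all libraries and between 5 and 9 when a library was left out. The counts lower lay between 3 and 7, and between 1 and 5 when a library was left out. The 3 limma settings on log TPM each gave 3 lower, with 14 higher at a pseudocount of 1 or 0.1 and 13 without a filter. For the other lipid genes, leaving out a library gave between 9 and 17 higher and between 14 and 22 lower (15 and 25 with all libraries), and over all genes between 1888 and 3137 higher and between 1958 and 3052 lower (3333 and 3506). Taking the letter as a replicate block gave 13 synthesis genes higher and 7 lower. The block added calls for HMGCS1 (edgeR adjusted p = 0.00286), SREBF1 (0.0358), ELOVL5 (0.0249) and, among the other lipid genes named, FABP5 (0.0195), and removed none of the 17. The labels do not say that the letters pair the libraries, though same-letter deviations correlated across 11363 genes (r = 0.397), which are not independent replicates.

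Among the 15 synthesis genes that did not pass, 9 changed sign in some setting, none of them called there. In the limma settings the log2 fold changes were 0.0455 at a pseudocount of 1, with or without a filter, and 0.0456 at 0.1 for IDI1, 0.0438 and 0.0439 for FDFT1, and 0.0394 and 0.0396 for LSS. With DESeq2 size factors FDFT1 was at 0.0007. Leaving out each library gave ranges of -0.104 to 0.0513 for IDI1, -0.1423 to 0.1145 for FDFT1 and -0.0413 to 0.1247 for SQLE. The ranges were -0.148 to 0.1018 for LSS, -0.1009 to 0.3198 for MSMO1 and -0.2623 to 0.0142 for SC5D. They were -0.1748 to 0.0315 for DHCR7, -0.0365 to 0.1325 for ACACA and -0.1948 to 0.2142 for SCD. FABP5, which is not one of the synthesis genes, ranged from -0.0748 to 0.7602. The cause of these changes was not tested. The median over all genes lay between -0.01 and 0.04 in all settings. The planned description of promoters was not run. Depth limits ELOVL2 most, whose lowest library held 18 estimated counts.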
